A study of Mus musculus with 113 samples.

Results

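The 10 genes described here, Ccne1, Ccne2, Ccnd1, Ccnd2, Ccnd3, Cdk4, Cdk6, Cdkn1a, Cdkn1b and Cdkn1c, are cyclins, kinases and kinase inhibitors that act at the passage from G1 to S phase. They were chosen by name, and all 10 were found in each of the 4 deposited expression tables, among 13541, 13738, 23107 and 11449 genes. The study followed mouse embryonic stem cells (mESCs) as they became neural cells, in cell populations (cpRNA-seq) and in single cells (scRNA-seq). R1 mESCs, with no modified allele named in the labels, were grown as floating serum-free aggregates (SFEB) and sampled as 22 populations, 14 in a first series from 0 to 142 h and 8 in a parallel series from 0 to 216 h that was taken at the times of the 64 single cells, with 8 cells at each of 8 times. The same cell line was also grown as an adherent monoculture and sampled 15 times from 0 to 216 h. E14 mESCs, either wild type (WT) or with Fyn deleted (Fyn KO), were sampled at day 0 and day 4 with 3 libraries in each of the 4 groups. Fyn encodes a Src-family tyrosine kinase, and the Fyn KO line is 1 CRISPR clone with a deletion that removes the start codon. The mESCs had been passaged 1 time without feeder cells. The labels do not give the culture format of the E14 cells at day 4, and nothing says that same-group libraries came from separate cultures, so their p-values measure only the spread between these libraries. Within each SFEB series, the adherent course and the cells, each time is 1 sample, and only 0 h was sampled in both SFEB series, so trends were tested across times. The p-values of these trends measure the spread of single samples about a trend within these courses, not the spread between repeated differentiations.

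D-type cyclins, made by Ccnd1, Ccnd2 and Ccnd3, bind CDK4 and CDK6, and these kinases start the phosphorylation of the retinoblastoma protein that frees E2F factors. E-type cyclins, made by Ccne1 and Ccne2, then drive CDK2 into S phase. The Cip/Kip proteins p21, p27 and p57, made by Cdkn1a, Cdkn1b and Cdkn1c, hold these kinases back, and mESCs are known for a short G1 phase that lengthens as they differentiate.

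To place the genes, their positions were taken on the mm9 build. Ccne1 lies at chr7:38883003-38892553 on the minus strand, Ccne2 at chr4:11118498-11131926 on the plus strand, and the 3 D-cyclin genes at chr7:152115836-152125774 (Ccnd1, minus), chr6:127075797-127101066 (Ccnd2, minus) and chr17:47642000-47736632 (Ccnd3, plus). Cdk4 lies at chr10:126500590-126504976 and Cdk6 at chr5:3343893-3523218, both on the plus strand. Cdkn1a lies at chr17:29227924-29237667 and Cdkn1b at chr6:134870419-134875531, both on the plus strand, and Cdkn1c at chr7:150644255-150646955 on the minus strand. The deposited values are 1 per gene, not per transcript. In this annotation an exon overlaps a gene on the other strand for Ccne2 (Ints8), Ccnd1 (Oraov1), Ccnd3 (Bysl), Cdk4 (Tspan31) and Cdk6 (Gm17590). The strand setting of the authors' quantification is not given in the sources used here, so reads from such pairs cannot be told apart and the values of these 5 genes are uncertain to that extent.

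RefSeq promoter windows (GRCm38.p6) matched 6 of the 10 genes, in 8 windows, and Ccne2, Ccnd1, Ccnd2 and Cdkn1c had none. The 4 windows printed here are shown because 2 of the genes, Ccne1 and Cdkn1b, had opposite trends in both culture formats, while Cdk4 was the most abundant of the 10, and Cdk4 and Cdkn1a were the genes whose trends differed between the SFEB series. Cdkn1a has another window, chr17:29090829-29090978, with 0 GC boxes, and the window with the most GC boxes is shown. Each holds the 150 bases before the start, from 5′ to 3′ on the gene's strand, and the capitals mark the GC box GGGCGGG on either strand. The windows are chr7:38107491-38107640 (minus) for Ccne1, chr10:127063385-127063534 (plus) for Cdk4, chr17:29093619-29093768 (plus) for Cdkn1a and chr6:134920251-134920400 (plus) for Cdkn1b.
Ccne1: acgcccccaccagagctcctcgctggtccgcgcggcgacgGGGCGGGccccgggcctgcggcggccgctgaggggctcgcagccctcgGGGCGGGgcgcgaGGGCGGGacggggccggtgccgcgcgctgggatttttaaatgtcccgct
Cdk4: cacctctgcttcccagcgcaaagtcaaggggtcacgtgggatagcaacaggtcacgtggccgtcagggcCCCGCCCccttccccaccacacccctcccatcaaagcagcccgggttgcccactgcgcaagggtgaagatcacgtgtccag
Cdkn1a: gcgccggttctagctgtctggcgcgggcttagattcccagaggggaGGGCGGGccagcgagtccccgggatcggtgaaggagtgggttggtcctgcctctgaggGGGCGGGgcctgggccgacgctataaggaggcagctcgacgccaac
Cdkn1b: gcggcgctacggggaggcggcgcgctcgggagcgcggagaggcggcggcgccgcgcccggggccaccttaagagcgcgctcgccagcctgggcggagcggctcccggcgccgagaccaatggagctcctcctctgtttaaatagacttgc
The Ccne1 window held 3 GC boxes, that of Cdk4 held 1, that of Cdkn1a held 2 and that of Cdkn1b held 0. Of the other windows not printed, that of Cdk6 held 0 and those of Ccnd3 held 1 each. A GC box was found in 20.2% of 32851 windows of this length. The E2F letters TTTCCCGC and TTTGGCGC, searched on both strands, were found in 0.603% and 0.268% of all windows and in none of the 8 windows of these genes.

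Before the cell cycle genes, the libraries were checked against their labels. Fyn was listed at 3.21, 2.74 and 4.00 FPKM in WT replicates 1, 2 and 3 at day 0 and at 9.44, 4.54 and 6.76 FPKM at day 4. In Fyn KO it was at 0.598, 0.598 and 1.10 FPKM at day 0 and at 1.19, 1.13 and 1.58 FPKM at day 4, below every WT library of the same day. The summed level of 8 pluripotency markers went from between 2201 and 3686 in the 6 SFEB samples of 0 to 9 h to between 139 and 652 in the 4 samples of 126 to 216 h, and that of 7 neural progenitor markers went from between 29.0 and 56.0 to between 407 and 903. Of 10 fibroblast markers, all 10 reached 1 in each SFEB sample of 0 to 9 h, with sums of 388 to 958, against 19.96 to 130 at 22 to 60 h, 15.1 to 37.4 at 68 to 106 h and 17.4 to 109 at 126 to 216 h. Their adherent sums were 316 to 429 FPKM up to 8.5 h and at most 148 FPKM after it, and their E14 sums were 0.356 to 12.3 FPKM. The cell table held 5 of the 10 fibroblast markers and lacked Postn, Lum, Fbn1, Lox and Thbs2. Each trend was therefore also fitted without the SFEB samples up to 9 h or the adherent samples up to 8.5 h, and the part of these sums in the early values of any of the 10 genes was not tested. E14 WT day 4 replicate 1, with neural progenitor markers at 172 FPKM against 21.9 and 51.7 FPKM in replicates 2 and 3, and Fyn KO day 0 replicate 3 each correlated least with their own group (mean r over genes 0.944 and 0.939).

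Values of the SFEB populations are FPKM after the authors' batch correction, and fold changes and slopes below are on the log2(value + 1) scale. Over 22 SFEB populations, Cdkn1b, Cdkn1c, Cdk4 and Ccne2 rose with time and Ccne1, Cdk6, Ccnd3 and Cdkn1a fell, so that 4 genes rose and 4 fell of the 10 (limma, two-sided, Benjamini-Hochberg adjusted p below 0.05 over 13115 genes, with series as a term). Rising genes were 35.1% of all genes tested and falling genes 27.1%. The median slope of the 10 genes was 0.07 per 24 h against 0.01 over all genes. With a spline of time that allows any shape, 10 of the 10 changed, against 87.6% of all genes, so that a change of some kind in this table was the rule for genes in general. In bulk samples, fewer cells of one type and less RNA per cell cannot be told apart.

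**Figure D1:**
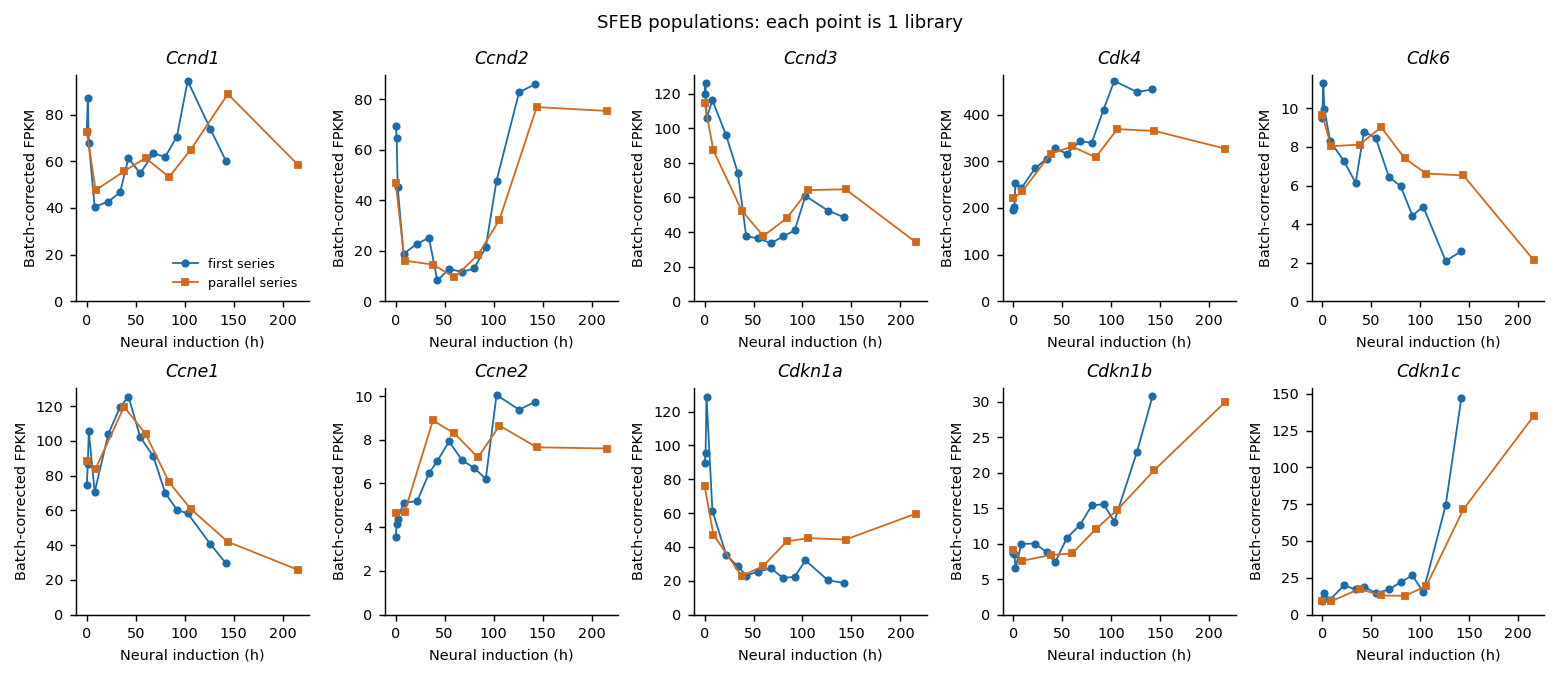
Level of each of the 10 genes (batch-corrected FPKM, vertical axis) against time (h, horizontal axis) in the SFEB populations, with 1 point per sample and the first (14 samples) and parallel (8 samples) series drawn separately. Ccne1 peaked at 125.6 at 42.5 h and ended at 25.7, Cdkn1c climbed past 71 only from 126 h on, and Cdkn1a ended at 18.7 in the first series and 59.7 in the parallel series.

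Among the D cyclins, Ccnd3 started highest. Ccnd3 stood at 120.1, 126.4, 105.8 and 116.2 at 0, 1, 2 and 8 h of the first series, fell to 37.6 at 42.5 h and 33.5 at 68 h, and was at 48.6 at 142 h. The parallel series gave 114.8 at 0 h, 87.2 at 9 h, 52.4 at 38 h, 37.7 at 60 h, 64.7 at 144 h and 34.0 at 216 h. Each value up to 9 h was above each later one except that of 22 h (96.0), which lay above the 9 h value. The slope of Ccnd3 was -0.18 per 24 h (SE 0.05, limma adjusted p = 0.00176), and was not called in the parallel series alone (-0.12, limma adjusted p = 0.0678) or without the samples of 0 to 9 h (-0.05, limma adjusted p = 0.404). The fall of Ccnd3 thus ran beside that of the fibroblast sum, whose part in it was not tested.

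Ccnd2 had a U-shaped course. Ccnd2 went from 69.4 at 0 h to 8.23 at 42.5 h in the first series, stayed between 11.6 and 13.003 from 54.5 to 80 h, and reached 47.8, 82.8 and 86.0 at 103, 126 and 142 h. The parallel series ran from 47.0 at 0 h through 9.48 at 60 h to 77.0 and 75.4 at 144 and 216 h. The early high values stood beside fibroblast sums of 388 to 958 at 0 to 9 h, which were 19.96 to 130 at 22 to 60 h, and their part was not tested. Both series had their lowest Ccnd2 value between 42.5 and 60 h and 10.4-fold and 8.12-fold higher values late. A straight line gave 0.17 per 24 h (SE 0.09, limma adjusted p = 0.113), which was called without the 0 h sample of the first series (0.20, limma adjusted p = 0.0493) or of the parallel series (0.22, limma adjusted p = 0.0491). Without all samples of 0 to 9 h it was 0.45 (limma adjusted p = 0.00019). The late rise of Ccnd2 ran beside neuronal marker sums that went from 70.5 to 183 at 22 to 60 h to between 333 and 947 at 126 to 216 h. Their part in it was not tested.

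Ccnd1 moved least of the D cyclins. It was at 73.2, 87.2 and 68.0 at 0, 1 and 2 h, at 40.5 at 8 h, and at 94.5, its highest, at 103 h of the first series. The parallel series ranged from 47.6 at 9 h to 88.9 at 144 h with a median of 59.9. Neither slope nor direction was resolved by a line (0.03 per 24 h, SE 0.03, limma adjusted p = 0.303), while the spline fit called Ccnd1 (limma adjusted p = 0.0218), a call lost without the 22 h (adjusted p = 0.0512) or the 34 h sample (adjusted p = 0.0517) of the first series and in the parallel series alone (adjusted p = 0.261). Because the 3 genes moved apart, the makeup of the D-cyclin sum shifted. Ccnd3 made up 66.2% of it at 8 h, Ccnd1 made up 52.8% to 58.4% from 42.5 to 92 h of the first series, and Ccnd2 made up 44.1% at 142 h and 45.0% at 216 h. At 144 h of the parallel series Ccnd1 led, with 38.5% against 33.4% for Ccnd2. The sum itself went from 262.6 at 0 h to 103.9 at 54.5 h and back to 194.9 at 142 h. These shares are descriptions of 1 sample each and carry no test.

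**Figure D2:**
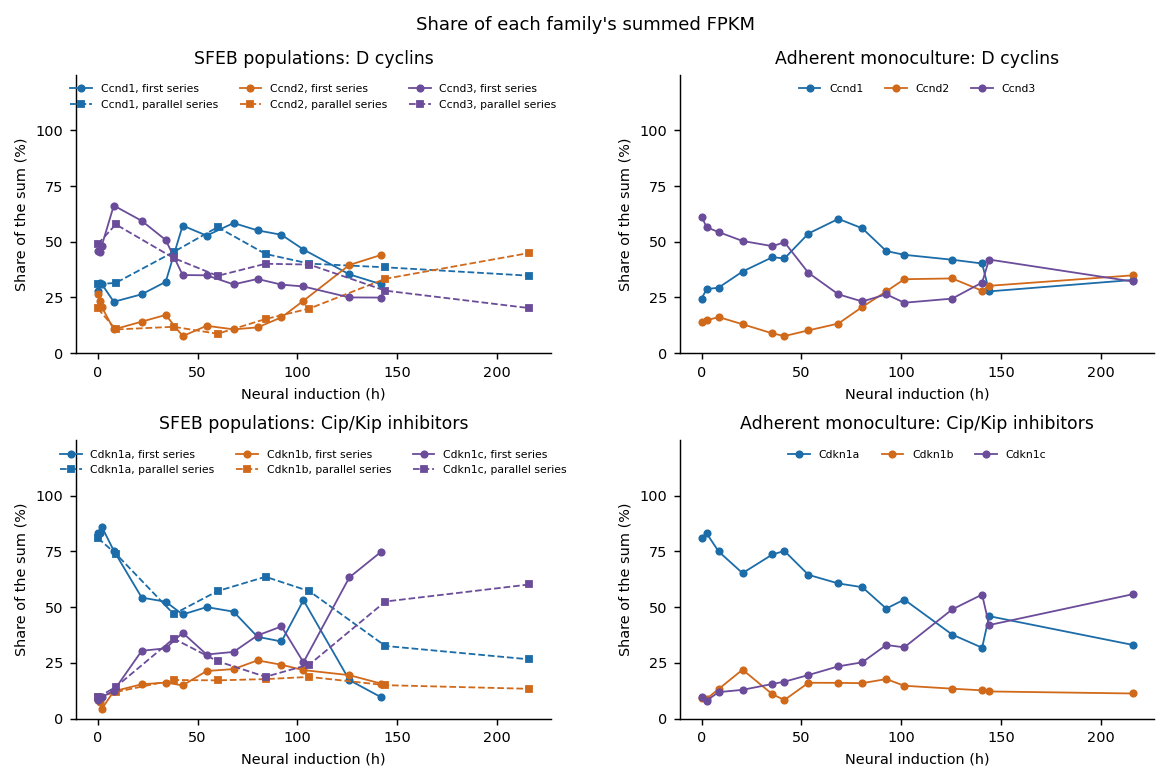
Share of each gene in the summed level of its family (percent, vertical axis) against time (h, horizontal axis) for the D cyclins and the Cip/Kip inhibitors, with 1 point per sample. In SFEB, Ccnd3 gave way to Ccnd1 and then Ccnd2, which held 45.0% of the D-cyclin sum at 216 h but 33.4% at 144 h, where Ccnd1 led. There Cdkn1a gave way to Cdkn1c, which held 74.8% of the inhibitor sum at 142 h and 60.1% at 216 h. In the adherent sample of 144 h, Cdkn1a (110.1 FPKM) was again above Cdkn1c (100.5 FPKM), and Ccnd3 led the D cyclins.

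Of the partner kinases, Cdk4 was the more abundant in every sample. Cdk4 rose from 195.4 at 0 h to 471.9 at 103 h and was at 453.6 at 142 h in the first series, and rose from 220.2 at 0 h to 368.8 at 106 h and was at 327.1 at 216 h in the parallel one. Cdk6 went the other way, from 11.3 at 1 h to 2.09 at 126 h and from 9.63 at 0 h to 2.12 at 216 h. Cdk6 was therefore at most 5.3% of the summed kinase level, and 0.5% to 0.6% at 126 h, 142 h and 216 h. The slopes were 0.12 for Cdk4 (SE 0.02, limma adjusted p = 3.47e-05) and -0.21 for Cdk6 (SE 0.03, limma adjusted p = 5.15e-07), and both calls held without the samples of 0 to 9 h. In the parallel series alone the Cdk4 slope of 0.06 was not called (limma adjusted p = 0.069).

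Ccne1, the main E cyclin here, rose first and then fell. Ccne1 was at 74.9 at 0 h, 125.6 at 42.5 h and 29.6 at 142 h in the first series, and at 88.4 at 0 h, 119.8 at 38 h, 41.9 at 144 h and 25.7 at 216 h in the parallel series. The 6 samples of 22 to 60 h lay between 102.3 and 125.6, above every sample from 68 h on, and the 4 samples from 126 h on lay between 25.7 and 41.9, below all others. The slope was -0.22 per 24 h (SE 0.03, limma adjusted p = 5.2e-06), and -0.34 without the samples of 0 to 9 h. Ccne2 also went up at first but stayed up, at a far lower level, from 3.56 at 0 h to 10.1 at 103 h and 9.73 at 142 h, and from 4.66 at 0 h to 8.89 at 38 h and 7.60 at 216 h. Its slope of 0.11 (SE 0.03, limma adjusted p = 0.000634) was not called after quantile normalization between samples (0.07, adjusted p = 0.0652), in the parallel series alone (0.06, adjusted p = 0.217) or without the samples of 0 to 9 h (0.04, adjusted p = 0.207), where the spline call was lost too (adjusted p = 0.204). Ccne2 made up 4.5% of the E-cyclin sum at 0 h and 24.7% at 142 h. S-phase gene sums (15 genes) were 1594 to 1764 at 0 to 9 h, 1905 to 2148 at 22 to 60 h, and lowest at 216 h, at 1044. The part of cell cycle phase in the Ccne1 values was not tested.

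The Cip/Kip inhibitors changed places. Cdkn1c (p57) stayed between 8.89 and 26.7 in all 18 samples up to 106 h, and was at 74.4 at 126 h, 147.2 at 142 h, 71.5 at 144 h and 135.1 at 216 h. No sample up to 106 h overlapped the 4 later ones. Cdkn1b (p27) was at 6.504 to 10.8 up to 60 h, at 12.04 to 15.6 from 68 to 106 h and at 20.4 to 30.8 from 126 h on, so that these 3 spans did not overlap. The slopes were 0.44 for Cdkn1c (SE 0.05, limma adjusted p = 1.8e-07) and 0.23 for Cdkn1b (SE 0.02, limma adjusted p = 1.2e-08), and both were called in each series alone and without the samples of 0 to 9 h. Neural progenitor sums of 30.6 to 69.6 at 22 to 60 h and 407 to 903 from 126 h on, and the neuronal sums given above, moved with Cdkn1b and Cdkn1c, and their part was not tested.

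Cdkn1a (p21) was high first. It was at 89.3, 95.7, 128.5 and 61.3 at 0, 1, 2 and 8 h of the first series, at 35.3 at 22 h, and between 18.7 and 32.0 from 34 h on. In the parallel series it went from 76.1 at 0 h and 47.2 at 9 h to 22.7 at 38 h and then back up, to 43.3, 45.2, 44.3 and 59.7 at 84, 106, 144 and 216 h. From 84 h on, every parallel value was thus above every first-series value. The pooled slope of -0.15 (SE 0.06, limma adjusted p = 0.0465) was just past the threshold and was lost in 13 of 22 fits that each left out 1 sample (without 0, 1, 2, 8, 68, 80, 92, 103, 126 or 142 h of the first series or 0, 84 or 106 h of the parallel series, at limma adjusted p of 0.0501 to 0.102). It was -0.37 in the first series alone (limma adjusted p = 0.00044), 0.03 in the parallel series alone (adjusted p = 0.723) and 0.05 without the samples of 0 to 9 h (adjusted p = 0.303), where the spline call was lost too (adjusted p = 0.361). The high early values of Cdkn1a stood beside the high fibroblast sums, and their part was not tested. Of the inhibitor sum, Cdkn1a held 83.4% at 0 h and 9.5% at 142 h, and 26.6% at 216 h in the parallel series.

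The slopes of the series were compared directly with a series by time term. Of the 10 genes, 1 had a higher slope in the parallel series and 1 a lower one, against 4.66% and 2.91% of all genes tested. Cdkn1a was higher by 0.39 per 24 h in the parallel series (SE 0.10, limma adjusted p = 0.0212) and Cdk4 lower by 0.13 (a difference of -0.13, SE 0.03, limma adjusted p = 0.021). The median difference was 0.00 over all genes. The parallel series extended to 216 h and the first ended at 142 h, and without the 216 h sample neither difference was called (Cdkn1a 0.32, limma adjusted p = 0.267, and Cdk4 -0.07, limma adjusted p = 0.409). In the same comparison 4 of 8 pluripotency markers had a higher slope in the parallel series (median difference of the 8 genes 0.45) and 2 of 7 neural progenitor markers a lower one (median -0.26). Pluripotency sums were 164 and 139 at 126 and 142 h of the first series and 652 and 281 at 144 and 216 h of the parallel one, and the fibroblast sum of the 216 h sample was 109 against 17.4 to 40.2 in the other 3 late samples. The part of these markers in the Cdkn1a and Cdk4 differences was not tested, and series and sampling times cannot be told apart here.

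To follow the same genes in a second culture format, the adherent monoculture was fitted in its own table of 12729 tested genes, whose values are FPKM normalized apart from the SFEB table. Ccnd2, Cdk4, Cdkn1b and Cdkn1c rose and Ccne1 and Cdk6 fell, that is 4 rising and 2 falling of the 10, against 35.2% and 23.4% of all genes (limma, two-sided). The median slope of the 10 genes was 0.06 per 24 h against 0.02 over all genes. The spline fit called 9 of the 10, all but Cdkn1a (limma adjusted p = 0.183), against 69.6% of all genes.

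**Figure D3:**
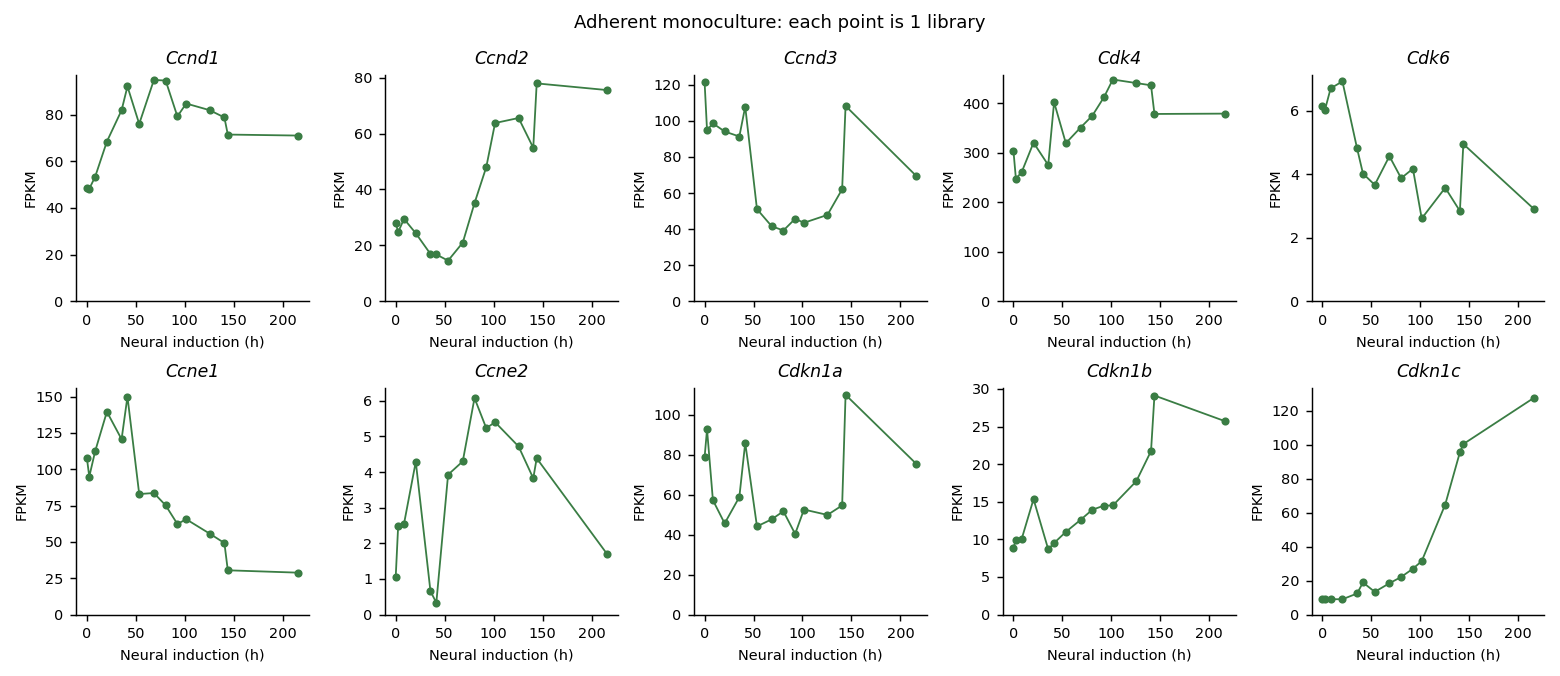
Level of each of the 10 genes (FPKM, vertical axis) against time (h, horizontal axis) in the 15 adherent monoculture samples, 1 point per sample. Ccne1 ended at 28.8 and Cdkn1c at 127.7, and the 144 h sample held the highest Cdkn1a (110.1), Cdkn1b (29.1) and Ccnd2 (77.9) values of the course.

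Ccne1 was at 108.1 FPKM at 0 h, highest at 41.5 h (150.02 FPKM) and at 28.8 FPKM at 216 h, with a slope of -0.25 per 24 h (SE 0.03, limma adjusted p = 3.05e-06). Cdkn1c was at 9.37 FPKM at 0 h and between 8.99 and 31.5 FPKM up to 101.5 h. It then reached 64.8, 95.6, 100.5 and 127.7 FPKM at 125.5, 140.5, 144 and 216 h, again with no overlap between the spans (slope 0.49, SE 0.03, limma adjusted p = 3.49e-08). Cdkn1b, the inhibitor of intermediate course, went from 8.91 FPKM at 0 h to 29.1 and 25.7 FPKM at 144 and 216 h (slope 0.18, SE 0.03, limma adjusted p = 2.85e-05). All 3 of these calls held without the samples of 0 to 8.5 h. Neuronal sums went from 110 to 203 FPKM at 20.5 to 53.5 h to 379 to 959 FPKM from 125.5 h on and neural progenitor sums from 28.0 to 73.4 FPKM to 373 to 503 FPKM, and their part in the late Cdkn1b, Cdkn1c and Ccnd2 values was not tested.

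Ccnd2 was again lowest midway, and in this culture its line was called. Ccnd2 went from 28.1 FPKM at 0 h to 14.5 FPKM at 53.5 h and reached 63.8 FPKM at 101.5 h and 75.5 FPKM at 216 h (slope 0.25, SE 0.05, limma adjusted p = 0.000421). Ccnd1 was lowest at the start, at 48.2 to 53.4 FPKM up to 8.5 h, and highest at 68.5 h, at 94.9 FPKM. Its line was not called (0.05, SE 0.03, limma adjusted p = 0.132) but was called without the 216 h sample (0.09, limma adjusted p = 0.0338) or with ranks of time (limma adjusted p = 0.0372). The spline called Ccnd1 (limma adjusted p = 8.72e-06) but not without the samples of 0 to 8.5 h (limma adjusted p = 0.109), where the line was -0.02. Ccnd3 went from 121.6 FPKM at 0 h to 39.2 FPKM at 80.5 h, with 108.3 FPKM at 144 h and 69.6 FPKM at 216 h, and its line was not called (-0.09, SE 0.05, limma adjusted p = 0.158). The order of D cyclins shifted here too, from Ccnd3 at 61.3% of the sum at 0 h to Ccnd1 at 60.3% at 68.5 h. At 144 h Ccnd3 led again with 42.0%, against 30.2% for Ccnd2 and 27.7% for Ccnd1, and at 216 h Ccnd1, Ccnd2 and Ccnd3 held 32.9%, 34.9% and 32.2%.

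Cdk4 ran from 247.3 FPKM at 2.5 h to 447.98 FPKM at 101.5 h (slope 0.08, SE 0.02, limma adjusted p = 0.00452), and Cdk6 from 6.93 FPKM at 20.5 h to 2.61 FPKM at 101.5 h (slope -0.10, SE 0.03, limma adjusted p = 0.00303). Neither kinase was called without the samples of 0 to 8.5 h (Cdk4 0.05, limma adjusted p = 0.108, and Cdk6 -0.08, limma adjusted p = 0.0642). Ccne2 stayed between 0.332 and 6.08 FPKM, and its line was not called (0.09, SE 0.07, limma adjusted p = 0.296). Its spline call (limma adjusted p = 0.0381) was lost in 9 of 15 fits that each left out 1 sample (0, 2.5, 8.5, 35.5, 68.5, 80.5, 92.5, 101.5 or 125.5 h, at limma adjusted p of 0.0501 to 0.068), and without the 216 h sample its line was called (0.21, limma adjusted p = 0.0364).

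Cdkn1a was not called here by either fit, although the spline called it without the 41.5 h sample (limma adjusted p = 0.0351). It was at 78.7, 92.7 and 57.3 FPKM up to 8.5 h, between 40.4 and 85.97 FPKM from 20.5 to 140.5 h, and at 110.1 and 75.6 FPKM at 144 and 216 h, so that early values, beside fibroblast sums of 316 to 429 FPKM, overlapped late ones (slope 0.01, SE 0.04, limma adjusted p = 0.904). The 144 h sample, which also held late Ccnd3 at its highest, carried mesoderm and endoderm markers summing to 67.4 FPKM, the most of any adherent sample, and their part in its values was not tested.

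The E14 lines were compared to ask how the genes moved over 4 days with and without Fyn. At day 0 in WT, the levels ran from Cdk4 (284.6 ± 22.5 FPKM, SD, n = 3) through Ccnd3 (98.7 ± 5.15), Cdkn1a (90.2 ± 26.6), Ccne1 (61.2 ± 16.1), Ccnd1 (44.6 ± 14.8), Cdkn1b (16.7 ± 5.35), Cdk6 (6.39 ± 5.65), Ccne2 (2.49 ± 0.629) and Cdkn1c (1.82 ± 1.97) to Ccnd2 (0.141 ± 0.123). Cdk4 stood clear of Ccnd3 in every library, Ccnd1 of Cdkn1b and Cdkn1c of Ccnd2, whereas all other neighbours in this order had overlapping ranges. Ccnd2, at 16.1 to 69.4 in the R1 SFEB samples of 0 to 9 h, was listed at 0.273 FPKM or below in these E14 libraries, in which the fibroblast markers summed to 1.20 to 1.71 FPKM at day 0 in WT. The tables were normalized separately, so these levels are set side by side without a test.

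By day 4 in WT, Ccnd2 rose and Ccnd3 and Cdkn1a fell, that is 1 gene higher and 2 lower of the 10, against 15.5% and 10.3% of the 12257 genes tested (limma, two-sided, adjusted over all genes). The median change of the 10 genes was -0.22 on the log2 scale against 0.08 over all genes. Ccnd3 was at 101.9, 92.7 and 101.4 FPKM in replicates 1, 2 and 3 at day 0 and at 34.2, 46.4 and 35.8 FPKM at day 4. The groups did not overlap, and the change was -1.33 (SE 0.15, limma adjusted p = 0.000209). Without overlap between WT days, 1 of the 10 genes was higher at day 4 and 2 were lower, against 25.8% and 16.4% of all genes. Cdkn1a was at 68.1, 119.7 and 82.8 FPKM at day 0 and at 13.9, 29.3 and 23.4 FPKM at day 4, again without overlap (-2.00, SE 0.36, limma adjusted p = 0.00296). Ccnd2 went from 0.273, 0.0287 and 0.120 FPKM to 12.6, 2.66 and 4.24 FPKM. Every day 4 library was above every day 0 library, with replicate 1, the library with the most neural progenitor markers, highest by far (2.49, SE 0.54, limma adjusted p = 0.00697). Without that library the Ccnd2 change was 1.95 and still called (limma adjusted p = 0.0239). Ccnd2 passed the filter of at least 1 FPKM in 3 libraries only through the WT day 4 libraries, where it is high, and 1 Fyn KO library, so its call is given as a description and supports nothing further. With no filter on low values the Ccnd2 change was 2.49 (limma adjusted p = 0.0151). Over 17 alternative fits the Ccnd2 change ran from 1.95 to 4.61, so its size depended strongly on the settings. Over the same days, 7 of 8 markers of pluripotent cells fell in WT and 5 of 8 in Fyn KO, with sums of 3617 to 4520 FPKM at day 0 and 836 to 2188 FPKM at day 4 in WT and of 4256 to 4839 FPKM and 1948 to 2446 FPKM in Fyn KO. Of the 5 neural progenitor markers tested, 3 rose in WT, and limma called 0 in Fyn KO, with 1 at an unadjusted p below 0.05. The part of these markers in the changes of Ccnd2, Ccnd3 and Cdkn1a between days was not tested.

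Among the 7 uncalled genes, Cdk4 and Cdkn1c each had 1 library, WT day 4 replicate 1, far above the others of its group. Cdk4 was at 289.2, 260.1 and 304.4 FPKM at day 0 and at 531, 261.3 and 314.8 FPKM at day 4, and without WT day 4 replicate 1 its change went from 0.31 to 0.01. Cdkn1c was at 0.423, 4.07 and 0.975 FPKM at day 0 and at 15.3, 2.20 and 1.02 FPKM at day 4 (0.96, SE 0.76, limma adjusted p = 0.375, and 0.07 without the same library). Cdk6, also uncalled, had 1 high library at day 0, replicate 1, at 12.8 FPKM against 4.05 and 2.28 FPKM. Its WT change of -0.27 (limma adjusted p = 0.682) became 0.32 without that library (limma adjusted p = 0.474). The R1 SFEB samples of 92 and 103 h, the nearest to day 4 in the first series, held Cdkn1c at 26.7 and 15.2, in a table that was normalized separately.

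In Fyn KO, the same 2 genes that fell in WT fell by day 4, and no gene rose, against 7.56% of genes lower and 11.8% higher (limma, 12257 genes). The median change of the 10 genes was -0.29 against 0.05 over all genes. Ccnd3 went from 96.6, 101.1 and 107.3 FPKM to 42.5, 45.4 and 58.1 FPKM, with no overlap (-1.06, SE 0.15, limma adjusted p = 0.00101). Cdkn1a went from 110.4, 110.6 and 47.5 FPKM to 37.0, 33.4 and 22.0 FPKM, also with no overlap (-1.44, SE 0.36, limma adjusted p = 0.0181). Replicate 3 was the lowest on both days, and the Cdkn1a call was lost without Fyn KO day 0 replicate 1 (-1.24, limma adjusted p = 0.0737), without day 0 replicate 2 (-1.24, limma adjusted p = 0.0804) or without day 4 replicate 3 (-1.22, limma adjusted p = 0.0782). Ccnd2 was at 0.00857, 0 and 2.76 FPKM at day 0 and at 0.829, 0.213 and 0.765 FPKM at day 4, so that the day 0 values spanned those of day 4 (0.02, SE 0.54, limma adjusted p = 0.986). Cdk6 was at 14.6, 12.9 and 8.65 FPKM at day 0 and at 4.83, 6.33 and 5.58 FPKM at day 4. Its Fyn KO groups did not overlap, yet the change of -0.96 was not called (SE 0.43, limma adjusted p = 0.133). The Cdk6 change was called only without WT day 0 replicate 1, which shares the estimate of the spread (limma adjusted p = 0.0301). Without overlap between Fyn KO days, 3 of the 10 genes were lower at day 4, against 16.8% of all genes, while 21.9% of all genes were higher.

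**Figure D4:**
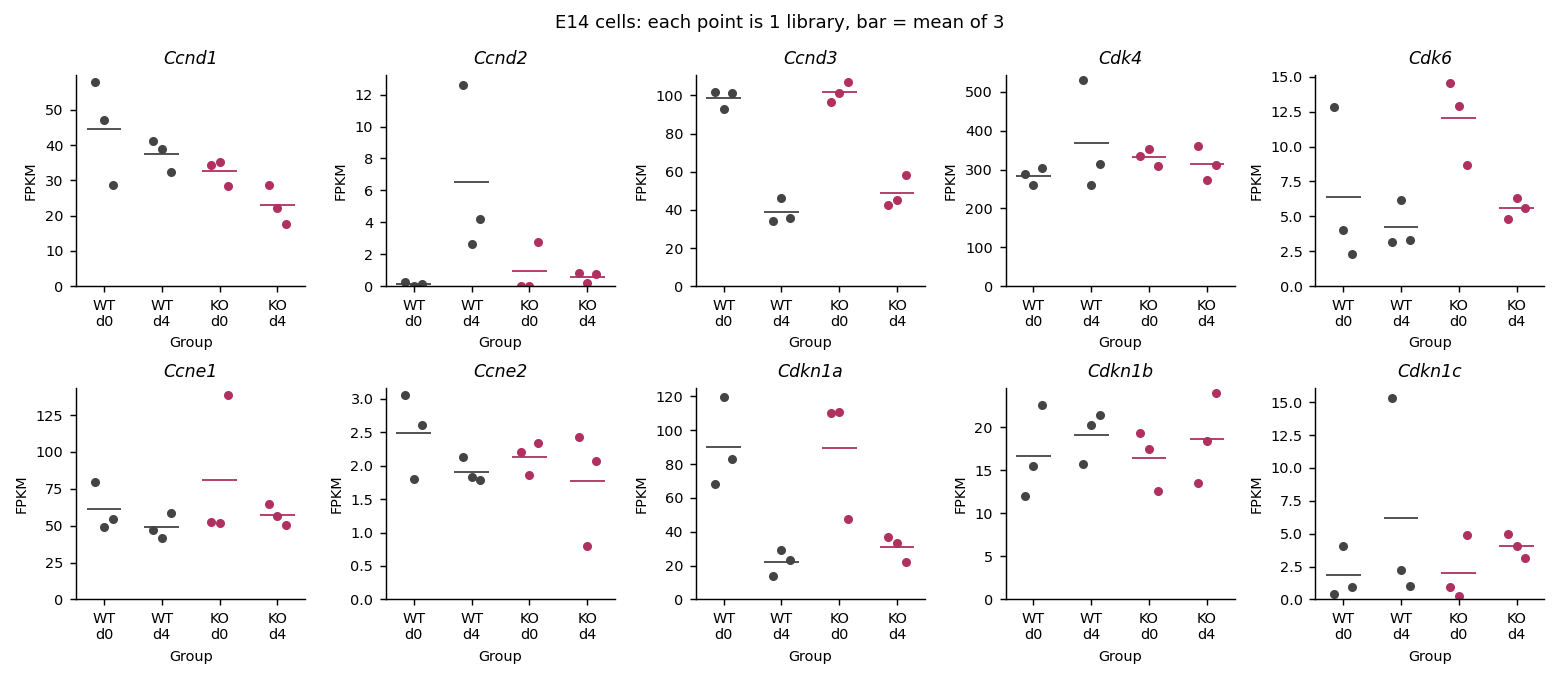
Level of each of the 10 genes (FPKM, vertical axis) in the 12 E14 libraries by genotype and day (horizontal axis), with 1 point per library and a bar at the mean of 3. Ccnd3 and Cdkn1a were lower at day 4 than at day 0 in every library of both genotypes. Such lower values without overlap were seen in 16.4% of all genes in WT and 16.8% in Fyn KO. Ccnd2 was at 2.66 to 12.6 FPKM in WT at day 4 and under 0.83 FPKM in Fyn KO at day 4.

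Fyn KO was then set against WT on each day. At day 0, 0 of the 10 genes were called in either direction by limma, with 1 at an unadjusted p below 0.05, against 0.0408% of all genes called higher and 0.131% lower. The lowest adjusted p was 0.286, for Cdk6, which was at 12.8, 4.05 and 2.28 FPKM in WT and at 14.6, 12.9 and 8.65 FPKM in Fyn KO (1.06, SE 0.43). WT replicate 1 lay within the Fyn KO range, and without it the Cdk6 difference was 1.65 and was called (limma adjusted p = 0.031). Without overlap between groups, 1 gene was higher in Fyn KO, Cdk4, at 335.1, 353.7 and 308.6 FPKM against 289.2, 260.1 and 304.4 FPKM, and 0 were lower, whereas 10.5% and 10.9% of all genes had such a pattern.

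At day 4, again 0 of the 10 genes were called by limma, with 2 at an unadjusted p below 0.05, against 0.00816% of all genes higher and 0.0653% lower. Ccnd2 came nearest in this fit, at 12.6, 2.66 and 4.24 FPKM in WT and at 0.829, 0.213 and 0.765 FPKM in Fyn KO (-2.02, SE 0.54, limma adjusted p = 0.165). Without WT day 4 replicate 1 the difference was -1.47 (limma adjusted p = 0.39), and over 17 alternative fits it ran from -3.08 to -1.47. Ccnd1 was at 41.2, 38.9 and 32.4 FPKM in WT and at 28.7, 22.2 and 17.7 FPKM in Fyn KO (-0.71, SE 0.24, limma adjusted p = 0.263). With a block that pairs same-numbered libraries, Ccnd1 came nearest (SE 0.15, limma adjusted p = 0.0987), before Ccnd2 (SE 0.49, limma adjusted p = 0.125). Ccnd1 and Ccnd2 were the 2 genes lower in Fyn KO without overlap, and 0 were higher, against 9.99% and 6.54% of all genes. The neural progenitor sums of the same libraries were 21.9 to 172 FPKM in WT and 15.04 to 31.2 FPKM in Fyn KO, and their part in the Ccnd1 and Ccnd2 values was not tested.

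A genotype by day term gave 0 calls among the 10 genes and 0.0% of all genes in either direction (limma), with 1 gene at an unadjusted p below 0.05, Ccnd2 (-2.48, SE 0.76, limma adjusted p = 0.997). Over 17 alternative fits the Ccnd2 term ran from -3.60 to -1.84 and was never called. That Ccnd2 rose in WT and was not called in Fyn KO was therefore not shown to differ between genotypes. Of the D-cyclin sum, Ccnd2 held 7.74% ± 5.89 (SD, n = 3) in WT and 0.821% ± 0.446 in Fyn KO at day 4, while Ccnd3 held 47.0% ± 7.26 and 67.3% ± 8.44. At day 0 Ccnd3 held 69.2% ± 7.55 in WT and 75.2% ± 2.06 in Fyn KO. These shares carry no test, and at day 4 the Ccnd3 levels themselves overlapped between genotypes, at 34.2 to 46.4 FPKM in WT and 42.5 to 58.1 FPKM in Fyn KO.

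In the single cells, values are log10(RPKM + 1), and a gene was counted as detected above 0.5 RPKM. Ccnd2 and Cdkn1c rose over the 8 time-point means, 2 rising and 0 falling of the 10, against 1.67% and 1.07% of 11449 genes (limma, two-sided). The median slope, in log10 units per 24 h, was 0.02 for the 10 genes against 0.00 over all genes. The slope of Ccnd2 was 0.13 (SE 0.03, limma adjusted p = 0.0387) and that of Cdkn1c 0.13 (SE 0.03, limma adjusted p = 0.0345). Neither was called in any of the 8 fits that each left out 1 time, the 216 h fit included (Ccnd2 0.11, limma adjusted p = 0.38, and Cdkn1c 0.09, limma adjusted p = 0.418). Over those fits the slopes ran from 0.11 to 0.15 for Ccnd2 and from 0.09 to 0.16 for Cdkn1c. Median numbers of genes above 0 per cell differed between times, from 6145 at 144 h to 8972 at 0 h, and their part in detection counts was not tested.

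**Figure D5:**
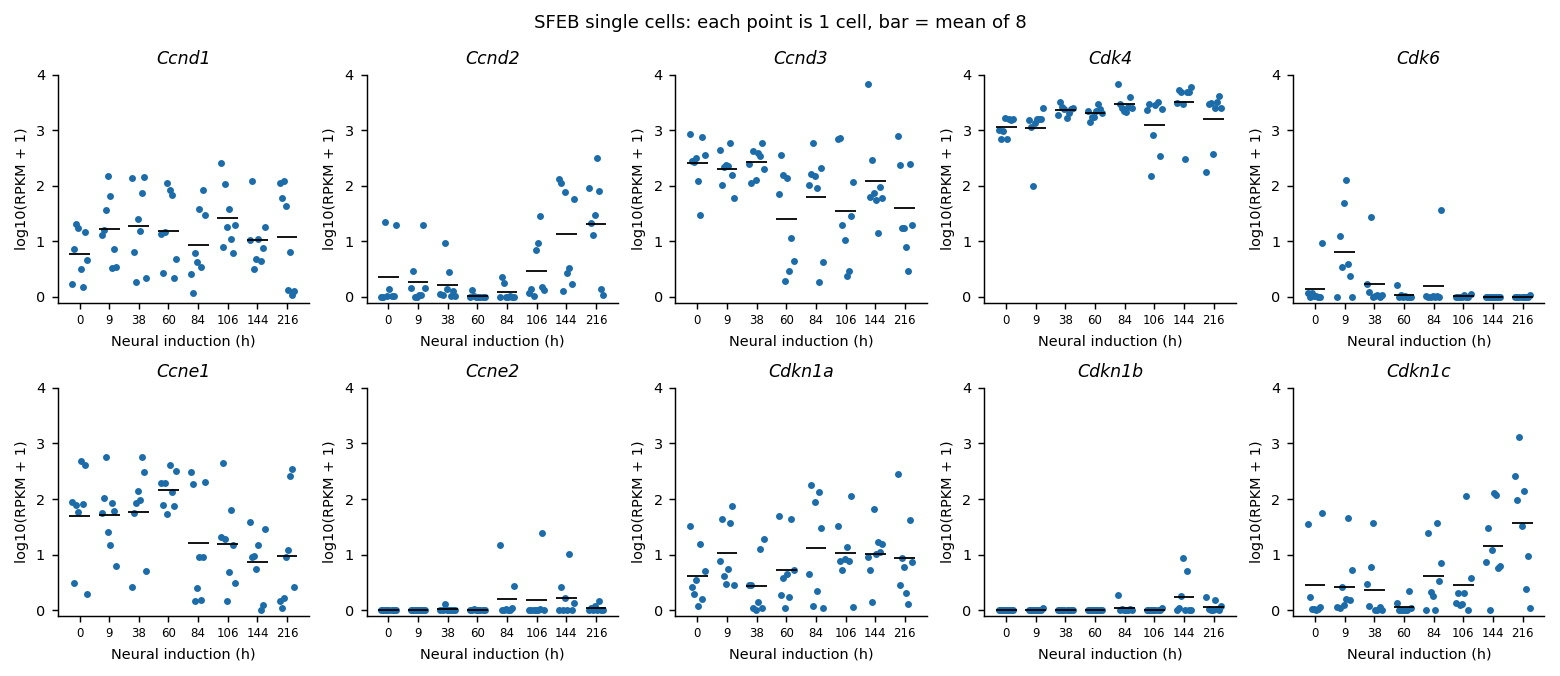
Level of each of the 10 genes (log10(RPKM + 1), vertical axis) in the 64 SFEB single cells by time (h, horizontal axis), 1 point per cell with the mean of the 8 cells of each time. Cdk4 and Ccnd3 were detected in all 64 cells, and mean Ccnd2 and Cdkn1c were highest at 216 h, at 1.31 and 1.57.

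Detection split the 10 genes. Cdk4 and Ccnd3 were detected in 64 of 64 cells, Ccnd1 in 60, Ccne1 in 58 and Cdkn1a in 53, whereas Cdkn1c was in 36, Ccnd2 in 24, Cdk6 in 11 and Ccne2 and Cdkn1b in 6 each. Cdk4 had the highest mean at each time, between 3.043 and 3.502. Where a gene was in 0 of 8 cells, as Ccne2 and Cdkn1b were at each time from 0 to 60 h, counting error allows a detected share of up to about 37.5%. The limit is an approximation, 3 counts over 8 cells, and takes the cells as independent draws. This limits cells with a detected value, not cells that express the gene, and Ccne2 was at 4.66 or above and Cdkn1b at 7.59 or above in each parallel population.

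Ccnd2 was detected in 2, 2, 2, 0, 2 and 3 of 8 cells at 0, 9, 38, 60, 84 and 106 h, and in 7 and 6 cells at 144 and 216 h. Its mean log10 level was 0.35, 0.27, 0.22, 0.02, 0.08, 0.47, 1.14 and 1.31 at the 8 times, low until 106 h and higher at both last times. At 0 and 9 h, Ccnd2 was at 1.36, 1.298 and 1.29 in 3 cells and at 0.46 or below in the other 13. The same 3 cells had fibroblast marker sums of 39.4, 102.6 and 294 RPKM, the highest of the 16 cells, in which the others lay at 18.3 RPKM or below. Early Ccnd2 was therefore highest in the few cells with the most fibroblast marker RNA, an observation made after the values were seen. In these 3 cells Ccnd1 was at 1.32, 0.67 and 0.86 and Cdkn1a at 0.30, 0.71 and 1.88. The other 13 cells held Ccnd1 at 0.18 to 2.18 and Cdkn1a at 0.07 to 1.63, so these 2 genes did not set the 3 cells apart.

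Cdkn1c was detected in 3, 5, 3, 1, 6 and 4 of 8 cells up to 106 h and in 7 of 8 at both 144 and 216 h, with means of 0.46, 0.42, 0.37, 0.07, 0.62, 0.45, 1.15 and 1.57. At 144 and 216 h, 13 of 16 cells had Ccnd2 and 14 had Cdkn1c, and 13 had both. At the earlier times, 11 and 22 of 48 cells had them and 7 had both. At 216 h, cell 16 was at 0.04 for Ccnd2 and 0.04 for Cdkn1c, below all 7 other cells of its time, whose lowest values were 0.14 and 0.38.

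Ccne1 went from means of 1.70, 1.71, 1.77 and 2.16 at 0, 9, 38 and 60 h to 1.22, 1.20, 0.88 and 0.98 at 84, 106, 144 and 216 h, so that each of the first 4 means was above each of the last 4. Its slope of -0.11 (SE 0.04) was not called (limma adjusted p = 0.0807). Ccnd3 was the highest D cyclin in 8 of 8 cells at 0, 9 and 38 h, and at 216 h it was highest in 4 cells, Ccnd1 in 2 and Ccnd2 in 2. Cdk6 was detected in 6 of 8 cells at 9 h, in 1 or 2 at 0, 38, 60 and 84 h and in 0 from 106 h on (slope -0.05, SE 0.02, limma adjusted p = 0.199). Cdkn1a was the highest inhibitor in 5, 6, 3, 7, 6, 6, 4 and 3 of 8 cells at 0, 9, 38, 60, 84, 106, 144 and 216 h, and Cdkn1c in 2, 2, 3, 0, 2, 2, 3 and 5, so that Cdkn1c led in more cells than Cdkn1a at 216 h alone.

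Other genes of the G1/S pathway, a list of 25, moved in both directions. In WT by day 4, 6 rose and 4 fell of 24 tested, against 15.5% and 10.3% of all genes, with the largest rise for Mycn, a Myc-family factor (1.13, SE 0.36, limma adjusted p = 0.0373), and the largest fall for E2f1 (-0.69, SE 0.18, limma adjusted p = 0.0156). In Fyn KO, 5 rose and 3 fell, against 11.8% and 7.56%, led by Mycn (1.29) and Cdk2, the kinase partner of cyclin E (-0.66, SE 0.12, limma adjusted p = 0.0045), and 0 were called between genotypes on either day by limma. Over the SFEB populations 7 rose and 6 fell of 25, against 35.1% and 27.1%, led by Cdkn2c (p18, 0.21, limma adjusted p = 8.53e-05) and Cdkn2b (p15, -0.50, limma adjusted p = 2.31e-06), both inhibitors of CDK4 and CDK6. In the adherent samples 7 rose and 9 fell, against 35.2% and 23.4%, led by E2f5 (0.23, limma adjusted p = 0.000134) and again Cdkn2b (-0.26, limma adjusted p = 8.68e-06). Of the genes whose slope differed between SFEB series, 2 were higher and 2 lower in the parallel series, against 4.66% and 2.91%, led by Cdkn2a (0.47, limma adjusted p = 0.00278) and Skp2 (-0.17, limma adjusted p = 0.0391). In the cells 1 of 23 fell, Mycn (-0.13, limma adjusted p = 0.0484), and 0 rose, against 1.07% and 1.67%. Against the same shares, 5 of 15 S-phase genes fell and 1 rose over the SFEB populations, and 9 fell and 0 rose in the adherent samples. Of 15 G2/M genes, 8 fell and 1 rose over the SFEB populations, and 6 fell and 0 rose in the adherent samples. By day 4, 4 S-phase genes fell and 0 rose in WT, as in Fyn KO, while 2 G2/M genes rose and 2 fell in WT and 1 rose and 1 fell in Fyn KO. In the cells 2 S-phase genes and 2 G2/M genes fell and 0 rose.

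The genes most like each of the 10 over the 22 SFEB populations were named by Pearson's r of log2 values, as a description across samples that share time and culture. For Ccne1 these were Nolc1 (r = 0.975) and Nsun2 (0.971), with 0.959 and 0.924 over the 15 adherent samples. Cdkn1c was most like Neurog2 (0.966) and Onecut1 (0.965), with 0.935 and 0.894 in the adherent samples, and Cdkn1b like Acvr2a (0.975) and Tsc1 (0.974), with 0.811 and 0.756. Cdkn1a was most like Anxa2 (0.954, adherent 0.730) and Cryab (0.935, adherent 0.763), Ccnd3 like Mfge8 (0.960, adherent 0.977) and D230025D16Rik (0.941, adherent 0.857), and Ccnd2 like 1810049H13Rik (0.950, adherent 0.549) and Clip4 (0.946, adherent 0.852). Cdk4 was most like Stard7 (0.949, adherent 0.903) and E2f3 (0.942, adherent 0.650), Cdk6 like Anxa7 (0.943, adherent 0.875) and Ptp4a3 (0.939, adherent 0.434), and Ccne2 like Zfp280c (0.906, adherent 0.956) and Rabl3 (0.904, adherent 0.487). Ccnd1 had the least close partners, Kank1 (0.796) and Lrrfip1 (0.786), with 0.527 and 0.302 in the adherent samples.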

How the data were processed

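RNA-seq of 113 samples was deposited in 4 tables, 1 each for the SFEB populations, the adherent populations, the E14 libraries and the SFEB single cells. The authors made FPKM values with TopHat and Cufflinks on mm9 (mm10 for E14); the labels' processing notes name TopHat2 2.0.8b and Cufflinks 2.1.1, whereas the study's methods name earlier versions of both, and which versions made which table is not given. The SFEB values, deposited as a score on the FPKM scale, were corrected by the authors for batch with ComBat; 1256 of 297902 values were below 0, 0 of them in the 10 genes, and were set to 0. The single-cell values were deposited as log10(RPKM + 1) after the authors' quantile normalization. The study states a minimum number of reads for each library of the cells and parallel populations, but the tables hold no read counts, so the depth of each sample was not used here. The number of libraries limits the precision, and batches used for ComBat are not given in the sources used here.

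From these values, log2(value + 1) was fitted with limma 3.58.1 in R 4.3.3 (trended variance, Benjamini-Hochberg over all genes, threshold 0.05, two-sided). E14 genes needed at least 1 FPKM in 3 libraries and time-course genes a value above 0.5 in 8 samples. Slopes are per 24 h, splines had 3 degrees of freedom, and the 8 cells of a time were averaged. The test was checked on simulated data. Python 3.11.15, numpy 2.4.6, pandas 2.3.3, scipy 1.17.1 and matplotlib 3.10.9 were used for the rest. Positions and exon overlaps came from the mm9 annotation given with the reference.

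The 10 genes and the marker and pathway lists were chosen with earlier results of these data known. The genes named were all 10, the 2 genes with the highest r to each, and the called gene of the G1/S list with the largest rise and fall in each comparison. Same-numbered E14 libraries deviated together between WT days (r of deviations 0.199, 0.220 and 0.224) and between genotypes at day 4 (0.136, 0.258 and 0.240). This was taken as pairing, and the other comparisons showed none. The main E14 fits held no replicate term, and the replicate block was fitted as an alternative. Alternatives were another pseudocount (0.1), no filter, quantile normalization, untrended variance, the replicate block, single series and leaving out samples.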

Additional observations from a re-analysis of the deposited data

Results flagged for a closer look

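Slopes over time differed between the SFEB series for 2 of the 10 genes, by a test of the difference itself (series by time term, limma, two-sided, adjusted over all genes). Among all genes tested, 4.66% had a higher slope in the parallel series and 2.91% a lower one. Cdkn1a differed by 0.39 log2 units per 24 h (SE 0.10, limma adjusted p = 0.0212), parallel minus first series, with slopes of 0.03 and -0.37 in the series fitted alone. Cdk4 differed by -0.13 (SE 0.03, limma adjusted p = 0.021), with slopes of 0.06 and 0.19. Neither was called without the 216 h sample, where the differences were 0.32 for Cdkn1a (limma adjusted p = 0.267) and -0.07 for Cdk4 (limma adjusted p = 0.409). Only the parallel series had this sample, whose fibroblast marker sum was 109 against 17.4 to 40.2 in the other 3 samples from 126 h on. In the same comparison 4 of 8 pluripotency markers had a higher slope in the parallel series (median difference of the 8 genes 0.45) and 2 of 7 neural progenitor markers a lower one (median -0.26). Their part in these differences was not tested.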

How the results depend on the processing

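Among 2060 values of the 10 genes under the alternatives, 1971 kept their side of the threshold, 72 lost a call, 15 gained one and 2 turned the direction of a call. Another 70 values, called under neither setting, changed sign. The 2 were the SFEB slope of Cdkn1a, which was 0.0274 in the parallel series alone and 0.0511 without the samples of 0 to 9 h, an alternative chosen after seeing the data. Counts of genes called that moved by over 1.5 times were 4 for the SFEB line in the parallel series alone, 0 for the difference between series without the 216 h sample, and 5 for the adherent spline without the samples of 0 to 8.5 h, also chosen after seeing the data. Without the same early samples the counts were 6 (SFEB line), 8 (SFEB spline), 3 (difference between series) and 4 (adherent line). In the cells the count was 0 without the 216 h time point, with the log10 of the mean RPKM, with medians and with ranks of time. It was 0 to 0 over the fits that left out 1 time each. Each of the cell calls was lost in 12 of 13 alternatives, among them some that kept all 8 times. Leaving out 1 library each gave counts of 1 to 3 for Fyn KO between days, 0 to 1 for Fyn KO against WT at day 0, 3 to 3 for WT between days and 0 for the other E14 comparisons. With 1 time left out each, counts were 7 to 8 (SFEB line), 9 to 10 (SFEB spline), 6 to 8 (adherent line) and 8 to 10 (adherent spline). The cause of these shifts was not tested. With the replicate block, which pairs same-numbered libraries, 3 genes were called in WT between days, 3 in Fyn KO between days, adding Ccnd1 (-0.51), and 0 between genotypes and for the interaction, and no other call changed.
Same-numbered libraries did not deviate together between Fyn KO days (r 0.0239, 0.0899 and 0.00112) or between genotypes at day 0 (0.0628, 0.339 and -0.115), so there the block is only a shared number.
The E14 groups held 3 libraries and every time within a series was 1 sample, so small differences at single times could not be resolved. The tables hold no read counts, and values near 0, such as those of Ccnd2 in E14 or Ccne2 and Cdkn1b in cells, can be failed estimates.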
